A study of Rattus norvegicus with 2 samples.

Results

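The genes described here were 7 inflammatory CC chemokines (Ccl2, Ccl7, Ccl12, Ccl3, Ccl4, Ccl5 and Ccl20) and 2 receptors (Ccr1 and Ccr2), measured in the cervical lymph nodes of rats with and without acute restraint stress. They were chosen by name, as all probes other than controls that carry one of these 9 gene names, and they are 9 of the 36174 genes on the array. All 9 were found, on 10 probes, and all 9 were well above background on both arrays, the mark by which the scanner software separates a spot from its background. Over the whole array, 21096 genes reached this mark in C, in RS or in both (the screened genes) and 19214 in both.

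Male Sprague-Dawley rats aged 10 to 12 weeks were either left without stress (C group) or restrained (RS group) by fastening the legs to a board with the animal on its back. RNA of the nodes was hybridized to 1 array per group, so that differences are without biological replication and carry no p-value. How long the rats of the stressed array were restrained is absent from the labels. The paper's microarray comparison is that of the C group with rats restrained for 30 min. Its methods give 1 procedure, anesthesia with halothane and killing with pentobarbital, before nodes were taken from each group. The sources used here do not say if RNA was pooled over rats.

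CC chemokines are small secreted proteins, named for a pair of adjacent cysteines near the amino terminus, that bind G protein-coupled receptors on leukocytes and direct their migration. The inflammatory members are made on demand by macrophages, stromal cells, endothelium and activated lymphocytes, and draw monocytes, granulocytes and effector T cells into tissue. In a lymph node they act beside the homeostatic chemokines that keep T cells and B cells in their compartments.

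Of the 9 genes, Ccl2, Ccl7 and Ccl20 rose by 2-fold or more on the RS array and the other 6 did not pass 2-fold in either direction. Ccl2 was 13.3-fold higher, Ccl7 9.73-fold higher and Ccl20 2.79-fold higher. Among all screened genes, 3.46% were higher by 2-fold or more and 4.28% lower, against 3 and 0 of these 9 genes. The 9 genes and the lists below were chosen with earlier results of these data known, so such counts describe them and test nothing. The median log2 difference of the 9 genes was 0.0078, close to the median of 0.016 over all screened genes. Among the 7 ligands the median was 0.22.

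The sequences upstream of 3 ligands are shown because a promoter table held them and because Ccl7 and Ccl20 rose while Ccl12, in the same chromosomal group as Ccl7, did not. RefSeq promoters of the GRCr8 assembly were found for 5 of the 9 genes (Ccl7, Ccl12, Ccl20, Ccr1 and Ccr2). Ccl2, which rose most, and Ccl3, Ccl4 and Ccl5 were not among them. Each sequence below is the 250 bases before the gene's start, 5′ to 3′ on the strand of the gene, from chr10:67513845-67514094 (forward) for Ccl7, chr10:67567626-67567875 (forward) for Ccl12 and chr9:91836909-91837158 (forward) for Ccl20. Capitals mark every match, on either strand, to the letters of the AP-1 site (TGANTCA), the cyclic AMP response element (TGACGTCA), the TATA box (TATAAA) and the NF-kB site.
Ccl7: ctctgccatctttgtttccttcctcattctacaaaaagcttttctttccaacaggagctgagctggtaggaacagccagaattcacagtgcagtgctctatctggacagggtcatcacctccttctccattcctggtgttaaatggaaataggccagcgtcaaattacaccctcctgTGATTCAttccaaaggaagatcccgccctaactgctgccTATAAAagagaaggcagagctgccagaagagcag
Ccl12: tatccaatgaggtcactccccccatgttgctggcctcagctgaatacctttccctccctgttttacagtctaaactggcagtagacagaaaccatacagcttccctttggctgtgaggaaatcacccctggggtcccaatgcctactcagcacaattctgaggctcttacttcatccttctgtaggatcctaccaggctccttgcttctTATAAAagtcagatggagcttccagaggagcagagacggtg
Ccl20: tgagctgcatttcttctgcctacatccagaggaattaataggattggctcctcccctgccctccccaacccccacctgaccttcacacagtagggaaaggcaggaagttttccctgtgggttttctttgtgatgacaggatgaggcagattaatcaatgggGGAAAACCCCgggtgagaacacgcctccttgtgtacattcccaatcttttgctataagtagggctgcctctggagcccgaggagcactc

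The Ccl7 window held 1 AP-1 match, from 73 to 67 bases before the start, and 1 TATA match, from 34 to 29 bases before it. Ccl12 held a TATA match from 41 to 36 bases before the start and none of the other motifs. Ccl20 held 1 NF-kB match, read on the reverse strand, from 89 to 80 bases before the start. The windows of Ccr1 and Ccr2 held none of the 4 motifs. Over the 33469 promoters of the table, the same 250 bases held the AP-1 letters in 6.34%, the cyclic AMP response element in 1.59%, the TATA letters in 12.9% and the NF-kB letters in 3.54%. The matches describe the letters of these windows only, and no binding was measured in this series. The part of these motifs in the differences between the genes was not tested.

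Ccl2, also known as monocyte chemoattractant protein MCP-1, is the main ligand of Ccr2. Its probe lies on chromosome 10 of the rat build rn4 named in the file headers (chr10:70257919-70257978, forward strand) and was printed in replicate spots, 9 of which were used on each array. On the C array the spot intensities, in arbitrary units after background subtraction, ran from 1103 to 1193 with a median of 1162. On the RS array they ran from 12829 to 15033 with a median of 14506. The lowest spot of the RS array was far above the highest spot of the C array, and the spots of an array varied by an SD of 0.034 (C) and 0.067 (RS) on the log2 scale.

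After each array was scaled to its 75th percentile of intensity (189 for C, 176 for RS), the log2 difference of Ccl2 was 3.73 ± 0.068, where the error combines the spot errors given by the scanner software. The 95% interval that these errors give ran from 3.60 to 3.86, and the intervals that follow are of this kind. This error covers the measurement of spots and not the variation between animals. Ccl2 stood at place 14 from the highest among the 19214 genes well above background on both arrays.

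Ccl7, or MCP-3, binds Ccr1, Ccr2 and Ccr3 and attracts monocytes and eosinophils. Its probe (chr10:70268674-70268733, forward strand, rn4) gave intensities of 160 and 166 in its 2 spots on the C array. On the RS array the 2 spots gave 1437 and 1522. The log2 difference was 3.28 ± 0.14 (interval 2.998 to 3.57), place 25 from the highest. Ccl7 was thus higher on the RS array, as was Ccl2. The difference of Ccl7 was smaller than that of Ccl2 by 0.45 (interval 0.13 to 0.76), beyond the spot error of both probes. Under another background correction (normexp) Ccl2 was at 3.64 and Ccl7 at 2.82. The size of the gap thus depends on background handling, which the interval does not cover.

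Ccl12, the rodent chemokine MCP-5 and another Ccr2 ligand, had 1 spot per array (chr10:70322447-70322506, forward strand, rn4). The spot read 102 in C and 82.0 in RS. The log2 difference was -0.21 ± 0.21, with an interval from -0.62 to 0.20 that includes 0. The difference of Ccl12 lay below that of Ccl2 by 3.94 (interval 3.51 to 4.37) and below that of Ccl7 by 3.49 (interval 2.998 to 3.99), so the 3 Ccr2 ligands of this group did not change alike.

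**Figure D1:**
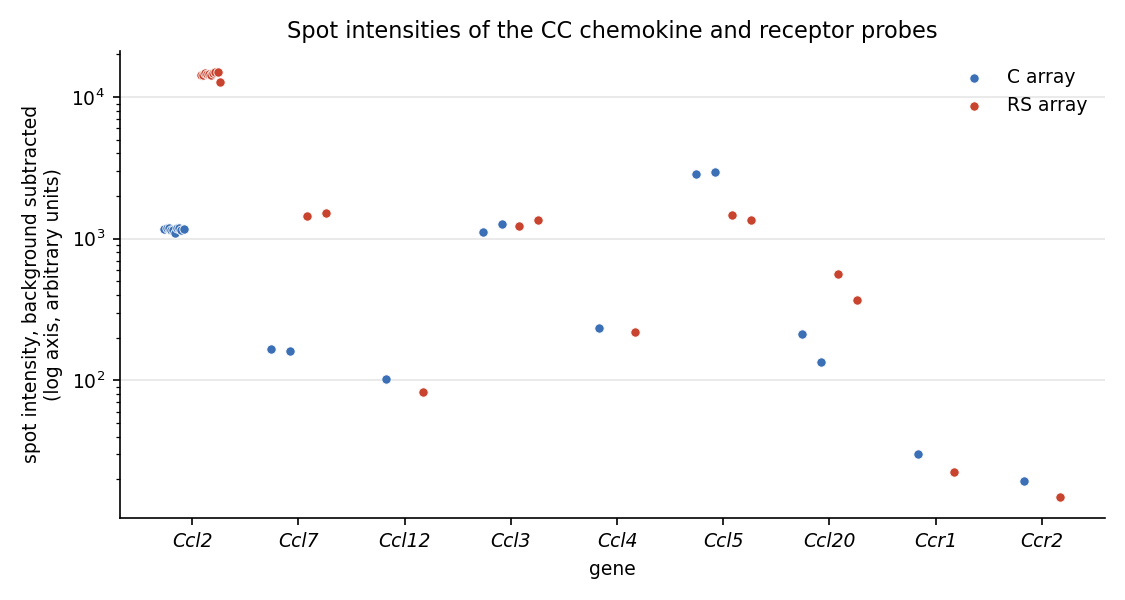
Spot intensity after background subtraction (log axis, arbitrary units, before scaling between arrays) of every probe of the 9 genes, with blue points for spots of the C array and red points for spots of the RS array. The RS spots of Ccl2, Ccl7 and Ccl20 lie above the C spots of the same gene, those of Ccl5 lie below, and the remaining genes lie close together. Levels of different genes cannot be set against each other, since probes differ in how they bind.

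Ccl3, Ccl4 and Ccl5 are the macrophage inflammatory proteins MIP-1α and MIP-1β and the chemokine RANTES, which attract macrophages and T cells. Ccl3 (chr10:71744611-71744670, reverse strand, rn4) is made by macrophages and also binds Ccr1. Its 2 spots gave 1109 and 1267 on the C array and 1221 and 1362 on the RS array, so that the arrays overlapped before scaling. After each array was scaled the spots stood at 2.55 and 2.75 (C) and at 2.79 and 2.95 (RS) on the log2 scale, without overlap. The log2 difference was 0.22 ± 0.14 (interval -0.06 to 0.50).

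Ccl4 (chr10:71760265-71760324, forward strand, rn4) had 1 spot per array, with intensities of 232 (C) and 218 (RS). After scaling the log2 difference was 0.0078 ± 0.21 (interval -0.39 to 0.41), the smallest in size of the 9 genes. The differences of Ccl3 and Ccl4 were 0.21 apart with an interval from -0.28 to 0.70, so that this measurement did not separate them.

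Ccl5 (chr10:71605854-71605913, reverse strand, rn4), which activated and cytotoxic T cells make, was the ligand with the largest difference toward lower intensity. Its 2 spots gave 2849 and 2950 on the C array. On the RS array they gave 1351 and 1473, and the arrays did not overlap. The log2 difference was -0.94 ± 0.14 (interval -1.22 to -0.66), or 1.92-fold lower, which is under the 2-fold threshold. Without normalization between the arrays it was -1.04, past that threshold. It stood at place 647 from the lowest among the genes well above background on both arrays. The difference of Ccl5 lay below that of Ccl3 by 1.16 (interval 0.76 to 1.56) and below that of Ccl4 by 0.95 (interval 0.46 to 1.44).

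Markers of the cells that make Ccl5 were read on the same arrays. Of 10 T cell markers, all well above background, none passed 2-fold and 7 lay below 0, with a median of -0.15 and a range from -0.97 (Cd5) to 0.57 (Cd28). Cd3d, Cd3e and Cd3g, chains of the T cell receptor complex, differed by -0.15, -0.16 and -0.14, while Lck (-0.58) and Cd8a (-0.52) were lower and Trat1 (0.27) was higher. The summed level of the T cell list, in multiples of each array's 75th percentile, was 169 in C and 153 in RS. Such a sum adds unlike probes and follows the brightest of them, here Cd3g and Cd3d with 84.1% of the sum in C. Of 10 cytotoxic T and NK cell markers 9 were screened and 1, the transcription factor Eomes, fell (344 to 96.6, -1.73). The list had a median of -0.24, with 7 members below 0, among them the granule genes Gzma (-0.72), Nkg7 (-0.68) and Prf1 (-0.27), and with Gzmb at 0.29 and the transcription factor Tbx21 at 0.0038. The NK cell receptor Ncr1 did not stand well above background in C or in RS. The summed level of that list was 60.3 in C and 55.5 in RS, of which Tbx21 alone made up 67.7% and 73.8%. In bulk tissue, fewer cells of a type and less RNA per cell cannot be told apart, and the part of these markers in the Ccl5 value was not tested.

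Ccl20, or MIP-3α, attracts B cells, dendritic cells and Th17 cells through its receptor Ccr6. It lies on chromosome 9 and was read by 2 probes with 1 spot each. The brighter probe (chr9:82443355-82443414, forward strand, rn4) gave 214 on the C array and 558 on the RS array, a log2 difference of 1.48 ± 0.20 (interval 1.08 to 1.88) and place 217 from the highest. The other probe (chr9:82443354-82443413) gave 136 and 369, a log2 difference of 1.54 ± 0.21 or 2.91-fold. The difference of Ccl7 was larger than that of Ccl20 by 1.80 (interval 1.31 to 2.29).

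The probes of Ccl20 are shown because they are nearly the same oligo and so do not measure the gene independently. Of their 60 bases, 59 overlap, with an offset of 1 base and 1 mismatch, A10G, counted from the 5′ end of the first probe below and given in capitals. The first 30 bases of each are printed, the dimmer probe first.
Dimmer probe: cgcttagtaAaaggttcaatattatgttta
Brighter probe: gcttagtaGaaggttcaatattatgtttaa

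The probes of different genes shared little sequence. Over the 44 pairs of probes from different genes of the 9, the longest run of bases in common was 8, between Ccl2 and Ccl12 and between Ccl3 and Ccr1.

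Ccr1, a receptor for Ccl3, Ccl5 and Ccl7 on monocytes and granulocytes, had 1 spot per array (chr8:128694469-128694528, reverse strand, rn4). The spot read 30.3 in C and 22.4 in RS, with a log2 difference of -0.34 ± 0.25 (interval -0.83 to 0.15). Ccr2, the receptor of Ccl2, Ccl7 and Ccl12 that brings monocytes out of the bone marrow, lies 199 kb from it (chr8:128893805-128893864, forward strand, rn4) and gave 19.5 and 15.1, a difference of -0.27 ± 0.34 (interval -0.93 to 0.39). Both spots were dim, the lowest intensity to pass as well above background being 9.45 on C and 8.52 on RS, and both intervals include 0. Neither receptor passed 2-fold, and their differences were 0.07 apart, which the interval of that comparison (-0.89 to 0.75) does not separate from 0.

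**Figure D2:**
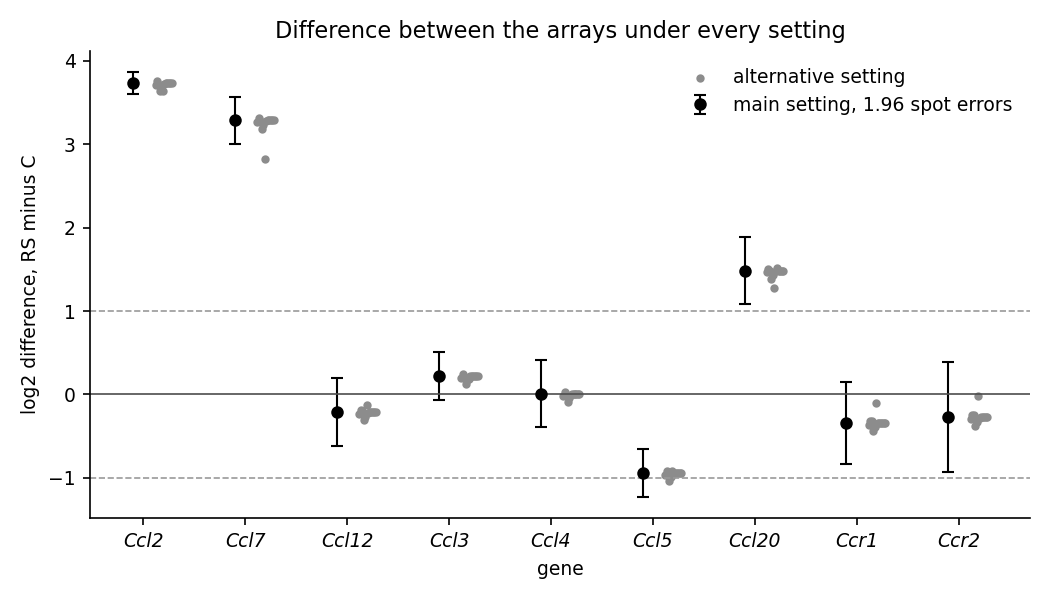
Log2 difference between the arrays (RS minus C) of each gene, with black points and bars for the value as reported and its 95% spot-error interval, and grey points for the value under each other way of processing. Ccl2, Ccl7 and Ccl20 stay above the dashed line of 2-fold in all of them, and Ccl5 lies at the lower dashed line and passes it without normalization, at -1.04.

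Across all genes measured on both arrays, the quartiles of the log2 differences were -0.18 and 0.19. Ccl4 lay between these quartiles, Ccl3, Ccl12, Ccr1 and Ccr2 lay just outside them with intervals that include 0, and Ccl2, Ccl7, Ccl20 and Ccl5 lay beyond them by more than their intervals.

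**Figure D3:**
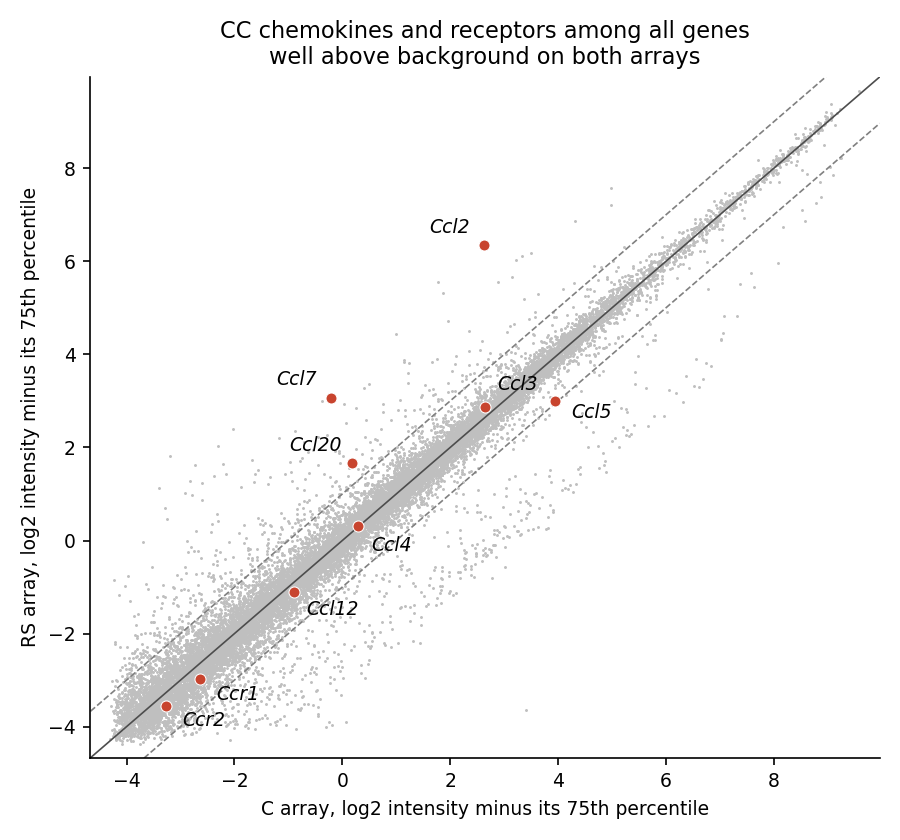
Scaled log2 intensity of the 19214 genes well above background on both arrays, C array on the horizontal and RS array on the vertical axis, with the 9 genes in red, the line of equality solid and 2-fold dashed. Ccl2 (3.73), Ccl7 (3.28) and Ccl20 (1.48) lie above the upper dashed line and Ccl5 (-0.94) lies at the lower one.

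Of the 7 ligands, 6 lie together on chromosome 10, in the CC chemokine clusters. Ccl2 and Ccl7, the pair that rose most, have probes 10.8 kb apart. Ccl12 lies 53.8 kb beyond Ccl7, and Ccl11, the eosinophil chemoattractant eotaxin, lies between them at 25.8 kb from Ccl2, with intensities of 69.6 (C) and 88.7 (RS; log2 difference 0.45 ± 0.21). Ccl1, on the far side of Ccl12, did not stand well above background in C or in RS. The large differences in this stretch were therefore those of the neighbours Ccl2 and Ccl7, and the next genes along it did not pass 2-fold.

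The group of Ccl5, Ccl3 and Ccl4 begins 1283 kb further along, with 139 kb between Ccl5 and Ccl3 and 15.7 kb between Ccl3 and Ccl4. Between Ccl5 and Ccl3 lie Ccl9 (32.3 to 48.9, log2 difference 0.70) and Ccl6 (339 to 405, 0.36 on its brighter probe and 0.52 on the other), both monocyte chemoattractants of rodents. In the window from 300 kb before to 1800 kb after the Ccl2 probe, 34 other genes were screened. Of these, 0 were higher and 2 lower by 2-fold or more, with a median of 0.020. The shares over all screened genes were 3.46% and 4.28%. The lowest of the 34 was LOC102555300, 1697 kb from Ccl2, which went from 186 to 17.8 (-3.29).

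**Figure D4:**
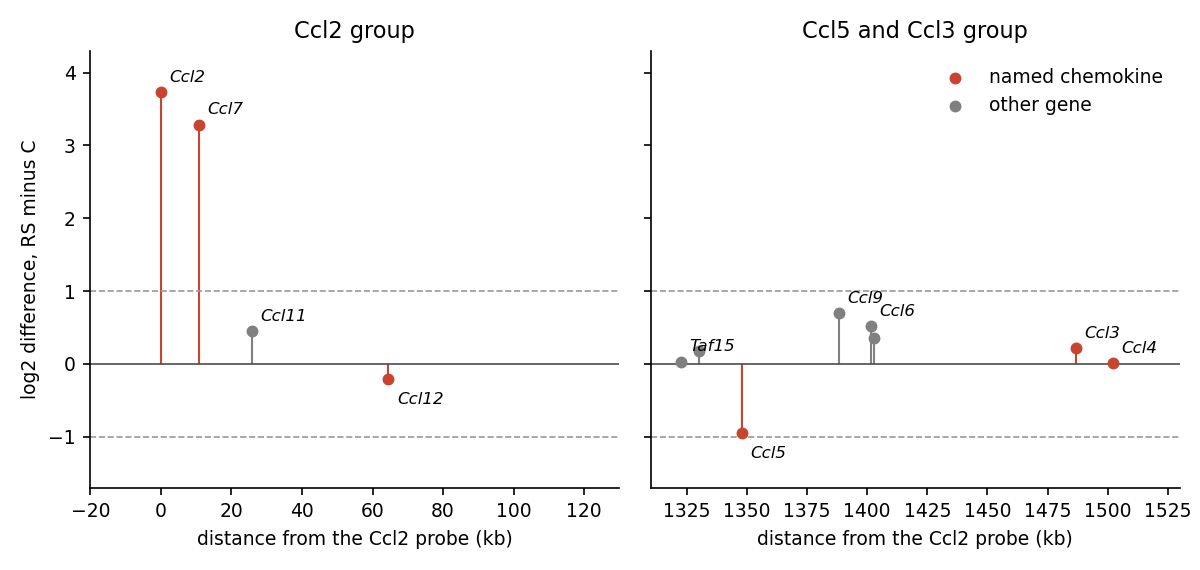
Log2 difference (RS minus C) against the distance from the Ccl2 probe in kb, for the screened probes near the Ccl2 group (left) and near the Ccl5 and Ccl3 group (right), with the 6 ligands of chromosome 10 in red, other genes in grey and 2-fold dashed. Ccl2 and its neighbour Ccl7 stand above 3 while Ccl11 and Ccl12 stay within 2-fold, and Ccl5 lies at -0.94; the panels leave out the stretch between and beyond these groups.

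The rest of the CC family was read from lists of gene names. For this and the following lists, the shares over all screened genes were 3.46% higher and 4.28% lower by 2-fold or more. Of 8 other CC ligands on the array 6 were screened and 0 passed 2-fold in either direction, with 5 of the 6 above 0 and a median of 0.38. The T cell attractants Ccl17 and Ccl22, which bind Ccr4, went from 737 to 788 (0.20) and from 1894 to 1758 (-0.01, with 3 probes between -0.03 and 0.01). Ccl24 went from 198 to 245 (0.41). Ccl1 and Ccl26 did not stand well above background in C or in RS.

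Of 7 other CC receptors and atypical receptors, 1 was higher by 2-fold or more and 0 lower, with a median of 0.27. The gene that rose was Ackr2, a scavenger receptor that takes up and degrades inflammatory CC chemokines, from 307 to 744 (1.37, 2.59-fold); a second probe gave 1.18 but was not well above background on the C array. Ackr1, the Duffy receptor that binds chemokines on venules and erythrocytes, went from 51.6 to 91.9 and differed by 0.93 on both of its probes.

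Ccr6, the receptor of Ccl20, went from 3193 to 1798, a log2 difference of -0.73 ± 0.20, and its second probe from 1081 to 630.3 (-0.68). Ccl20 and its receptor thus differed in opposite directions, with the receptor within 2-fold. Ccr3, an eosinophil receptor of Ccl7 and Ccl5, went from 57.5 to 34.2 (-0.65), and Ccr4 from 10.6 to 11.9 (0.27).

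In the small XC and CX3C families the genes that passed 2-fold were lower on the RS array. Of 4 genes on the array 3 were screened, with 0 higher and 2 lower by 2-fold or more. Xcl1, made by activated T cells and NK cells, fell from 233 to 95.9 (-1.18), and Cx3cl1, or fractalkine, fell from 444 to 196 (-1.09). The fractalkine receptor Cx3cr1 went from 245 to 184 (-0.32) on its brighter probe and from 193 to 73.7 (-1.29) on the other, so that only the dimmer probe passed 2-fold.

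Downstream of the receptors, 19 genes of G protein signaling and desensitization were screened, of which 1 was higher and 0 lower by 2-fold or more, with a median of -0.06. The gene that rose was Rgs1, an activator of the GTPase of Gi proteins that shortens chemokine signals, from 1138 to 3439 (1.69 ± 0.20, 3.24-fold). The brightest genes of the list, the GTPase Rac2 and the G protein subunit Gnai2, both differed by -0.06.

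Among 22 regulators of inflammatory chemokine transcription and mRNA decay, 7 were higher and 0 lower by 2-fold or more, with a median of 0.31. The shares over all screened genes were 3.46% higher and 4.28% lower, and the list was chosen with earlier results known. They were the AP-1 subunits Jun (243 to 478, 1.07), Junb (115 to 318, 1.56), Fos and Fosb, the NF-kB cofactor Nfkbiz (45.3 to 90.0, 1.09), and Zfp36 (72.6 to 170.0, 1.33) and Zfp36l2 (1566 to 3927, 1.43), which bind AU-rich elements and speed mRNA decay. Fos and Fosb were not well above background on the C array, where they read 11.4 and 9.94. Set against these readings they were 7.89-fold and 53.7-fold higher, ratios with an uncertain C side. Other probes of Zfp36l2 ran down to 0.46, under 2-fold. The brightest genes of the list, Zfp36l1 and Irf1, differed by 0.07 and 0.35, and the NF-kB subunits Nfkb1 and Rela, named because the NF-kB letters were searched above, by 0.47 and 0.26.

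Of 8 cytokines known to induce these chemokines 7 were screened, and 1 was higher and 0 lower by 2-fold or more, with a median of 0.76. Il6 rose from 9.99 to 98.6 (3.40 ± 0.35). Its C reading lay close to the lowest intensity that passed as well above background on that array (9.45). The size of this rise is therefore uncertain. Il1b went from 851 to 1586, a log2 difference of 0.998 just under the threshold, and Tnf from 1121 to 1100 (0.07). Ifng did not stand well above background in C or in RS.

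Markers of cells that make or answer to these chemokines, and of erythrocytes and fat, were read beside them. B cell and stromal markers were well above background on both arrays, as were those of T cells, as a lymph node should show, and the T zone chemokine Ccl19 went from 13918 to 8832 (-0.56). None of 7 B cell markers passed 2-fold (summed level 94.8 in C and 92.6 in RS), and of 6 stromal markers 1, Pdpn, was higher (1.16 on its brighter probe and 0.55 on the other), with a summed level of 250.3 in C and 250.8 in RS. Of 13 monocyte and macrophage markers, all screened, 1 was higher and 0 lower by 2-fold or more, with a median of 0.03. Their summed level was 252 in C and 254 in RS, of which Lyz2 alone (-0.04) made up 81.3% and 78.3%, so that the sum mostly restates that probe. Cd14, the lipopolysaccharide coreceptor, rose from 312 to 927 (1.67), while Csf1r (-0.34) and Cd68 (-0.27) stayed within 2-fold. The part of macrophages in the Ccl2 and Ccl7 values was not tested.

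Markers of erythrocytes and fat were also higher on the RS array. Over all screened genes, 3.46% were higher by 2-fold or more and 4.28% lower. All 7 screened erythrocyte markers (of 8) were higher by 2-fold or more, with a summed level of 54.2 in C and 327 in RS. Of 8 fat markers 7 were screened and 6 were higher, with a summed level of 49.1 and 116, among them Adipoq (2.74) and Lep (3.24); Plin1 did not stand well above background in C or in RS. Of 10 neutrophil markers 7 were screened and 2 were higher, S100a8 (3.99) and S100a9 (3.78), with a summed level of 3.30 and 6.90. The other screened members were Retnlg (-0.19), the granule genes Ltf (-0.97) and Mmp8 (-0.41), and the receptors Csf3r (0.11) and Cxcr2. Cxcr2 differed by 0.73 but was not well above background on the C array. In cervical nodes the paper reports CXCR2 staining in macrophages positive for CD68, so Cxcr2 is not read here as a marker of neutrophils alone. S100a8 and S100a9 thus carried the rise of the sum. The granule genes Mpo, Elane and Camp did not stand well above background in C or in RS. Of 7 blood endothelial markers 6 were screened and 0 passed 2-fold, with a summed level of 26.7 and 29.1. The part of blood, fat or neutrophils in the chemokine values was not tested, and with 1 array per group it cannot be told apart from the stress.

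**Figure D5:**
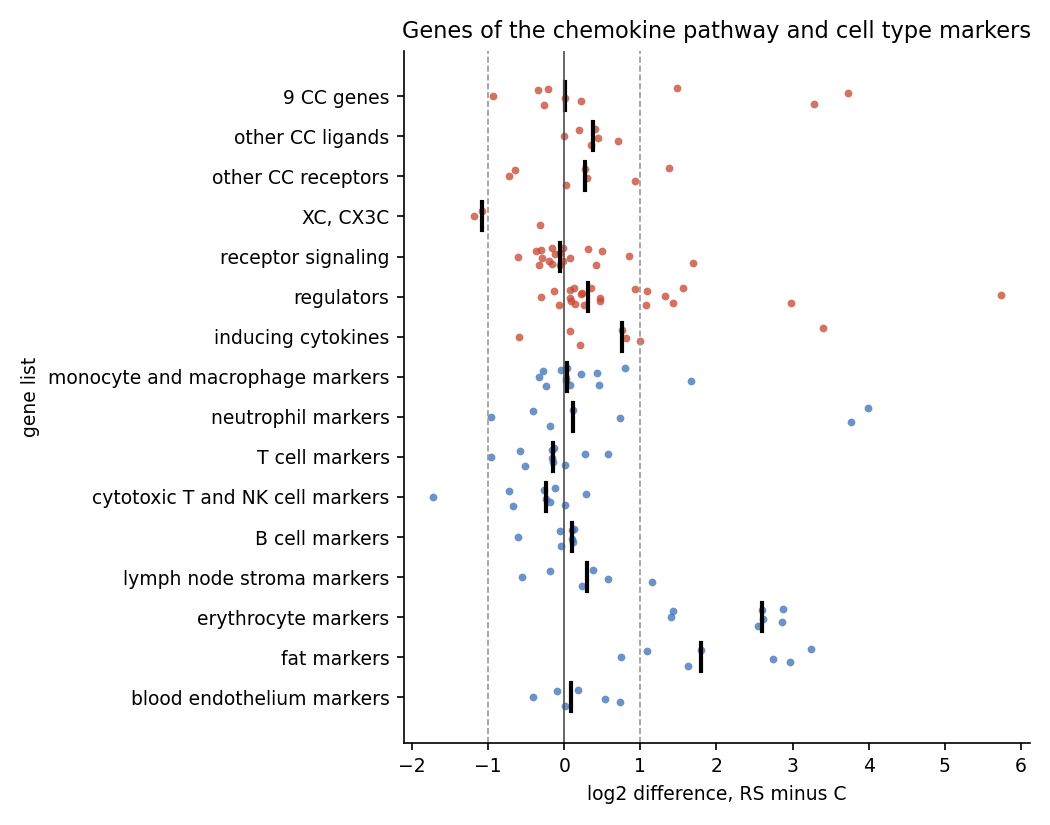
Log2 difference (RS minus C) of each screened gene of the lists, 1 point per gene, with red for the 9 genes and the other genes of the chemokine pathway, blue for cell type markers, black bars for the median of a list and dashed lines for 2-fold. Genes well above background on 1 array only are drawn at the bound described under the processing. Of the 9 genes, Ccl2, Ccl7 and Ccl20 lie past 2-fold, and the erythrocyte (median 2.60) and fat (1.80) markers lie to the right as lists while the macrophage markers centre on 0.03.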

How the data were processed

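Cervical lymph node RNA of 1 control and 1 restrained sample was labeled with Cy3 and hybridized to 1-color Agilent arrays of 60-base probes. The authors deposited spot intensity values from Feature Extraction 11.5.1.1, background subtracted and not normalized between arrays, and a probe table of log2 values. The table does not name its scale, and the paper describes a shift by the 75th percentile. Set against the scanner values, 100% of the deposited log2 values lay within 0.1 of log2 intensity minus the array's 75th percentile (column medians -3.52 for C and -3.55 for RS). Both arrays lay on 1 slide and in 1 scan. Each had 62976 spots, of which 58717 were not controls; 489 (C) and 660 (RS) outlier spots were left out, among them 1 Ccl2 spot per array, and 54.7% and 54.9% of 45598 probes were well above background. No spot was saturated. The number of arrays limits the precision.

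Spots of a probe were averaged as log2 intensity, and each array was shifted by its 75th percentile over probes, as in the authors' methods, with their 2-fold threshold. The brightest probe (mean of both arrays) stood for its gene. Where 1 array was not well above background a bound is given. The dim side was set to the lowest intensity that passed as well above background on that array, or to the intensity of the probe itself if higher. In the latter case the bound equals the plain ratio and is not a minimum of the change. A probe was well above background when over 50% of its spots were.

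All 9 genes are named, with the receptor Ccr6, from each other list the genes past 2-fold and the 2 brightest, and up to 3 markers per cell type; others are named for position, role, lack of signal or to show the spread of a list. A few of the genes covered by this rule are not reported here. The members and the 15 lists (6 of the pathway beside the 9 genes, 9 of markers) were chosen with earlier results of these data known. Positions are those of the files (rn4), promoters are RefSeq GRCr8, and no coordinates were converted.

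Alternatives were 5 other scalings, normexp background correction (offset 50), values of the deposited table, averaging all probes of a gene, outlier spots kept, plain ratios for bounds, 2 filters on dim probes, and a requirement that the difference exceed its 95% spot error. The steps were tested on simulated data. Software was limma 3.58.1 (R 4.3.3), numpy 2.4.6, pandas 2.3.3 and matplotlib 3.10.9 (Python 3.11.15). The RT-qPCR and histology of the study were not analysed here.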

Additional observations from a re-analysis of the deposited data

How the results depend on the processing

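The values of the 9 genes were recomputed under 12 of the 13 alternatives; the other bears on counts only. The handling of bounds and the 2 filters on dim probes could not change them, since all 9 genes were well above background on both arrays, and averaging probes could change Ccl20 only. Of the 73 values that could change, 69 moved by less than their spot error and 4 by more. With no normalization Ccl2 was at 3.63, and the number of the 9 genes lower by 2-fold or more became 1 (Ccl5, at -1.04) in place of 0. With the normexp background correction Ccl2 was at 3.64, Ccl7 at 2.82 and Ccl20 at 1.28. In each alternative 3 of the 9 genes, Ccl2, Ccl7 and Ccl20, were higher by 2-fold or more. Ccl5 ran from -1.04 to -0.91, Ccr1 from -0.44 to -0.098, Ccr2 from -0.37 to -0.024, and Ccl4 from -0.09 to 0.03, on both sides of 0. Over all genes, the number higher was 730 and the number lower 903; these became 234 and 378 with normexp, 1741 and 1905 with no filter on dim probes, and 493 and 601 when both arrays had to be well above background. No paired analysis was possible because a group is a single array, which also leaves no replicate to omit. Spots of 1 array are not biological replicates, dim probes such as Ccr1 and Ccr2 resolve only large differences, and 1 spot per array carries 6 of the 10 probes.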
